A study of Mus musculus with 67 samples.

Results

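RNA was compared between microglia sorted from the brains of male Orai1 KO mice 6 h after LPS and microglia of male Orai1 KO mice given vehicle. The comparison comprised 6 of the 67 libraries of the series, and 6 of its 33 libraries of sorted cells. They were chosen by their labels alone: 3 libraries of LPS at 6 h, with library numbers 71, 72 and 73, and 3 vehicle libraries, numbered 3302, 3304 and 3398. All animals of both groups carried Orai1fl/fl together with Cx3CR1-cre/ERT2 and had received tamoxifen on 5 consecutive days. They were 10 to 12 weeks old when, 30 to 35 days after the last dose, they were injected with LPS at 1 mg/kg or with PBS alone. The WT males set beside them had the floxed gene without the Cre and also received tamoxifen (3 libraries at 6 h, numbered 68 to 70, and 3 with vehicle). Also used below are KO males at 24 h after LPS (4 libraries) and KO females at 24 h or with vehicle (3 libraries each). By the labels all these animals shared the age range, tamoxifen days and wait given above and, where LPS was given, its dose. The Cre is under control of Cx3cr1, a gene that microglia share with other brain macrophages and with some blood monocytes, so recombination need not be limited to microglia. The labels number the libraries as separate samples without saying how many animals each holds, and p-values measure the spread between these samples.

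Microglia are the resident macrophages of the brain. LPS, a cell wall component of Gram-negative bacteria, is sensed through the receptor TLR4, which acts through NF-kB and interferon regulatory factors. In macrophages a first wave of cytokine and chemokine transcripts typically rises within hours and is followed by later, partly different sets. After injection into the periphery, much of what reaches microglia is carried by circulating cytokines and by the cells of the vessel wall. Orai1 forms the pore through which calcium enters once internal calcium stores run low, and that calcium activates the phosphatase calcineurin and the NFAT factors.

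No gene names accompany the rows of the deposited tables, so rows are identified by their position from the top and no function is assigned to any of them. The labelled cell type could not be checked against marker genes, nor the deletion against Orai1 itself. Levels are given as CPM, counts scaled to a fixed library total, which are not divided by transcript length, so levels of different rows are not compared. The 6 libraries held 5888828 to 7105142 counts. In bulk RNA, fewer cells of a type and less RNA per cell cannot be told apart.

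The 6 h libraries carry the numbers 68 to 73, whereas the vehicle libraries carry numbers from 3299 to 3401. The vehicle and 24 h libraries together form 2 runs (3299 to 3315 and 3376 to 3402). Library 3398 belongs to the second of these runs, and 3302 and 3304 to the first. No vehicle library carries a number near 68 to 73, so the 6 h treatment and this run of numbers cannot be told apart in any comparison of 6 h with vehicle. Between the runs that do hold vehicle, 231 of 15344 rows (1.51%) differed at an adjusted p under 0.05 in a fit of 27 libraries with group means and a term for the run.

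A pair of the 6 libraries stood apart from their groups. Library 71 lay closer to vehicle than libraries 72 and 73 did. Its Spearman correlation with the mean of the vehicle libraries over all tested rows was 0.963, against 0.927 and 0.922 for libraries 72 and 73. Among the WT males at 6 h, library 70 likewise lay closer to KO vehicle, at 0.9602 against 0.9159 and 0.9125 for libraries 68 and 69. Library 70 took part in choosing the WT rows used below. Vehicle library 3398 had a correlation of 0.935 with the mean of the other vehicle libraries, which themselves reached 0.955 and 0.959. Each vehicle library was set against fewer libraries than the LPS libraries were, so values of vehicle and LPS libraries are not compared. For KO males at 6 h against vehicle, calls are counted with and without libraries 71 and 3398. Their overlaps with WT males and KO females are given both ways too. Other overlaps are given with all libraries only.

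To see how far each KO library moved, rows were chosen by comparing WT males at 6 h with WT vehicle. That comparison came from the fit of all sorted libraries, so the KO libraries entered its filter, scaling and spread. It gave 580 rows called higher by more than 2-fold in WT at 6 h (3.78% of 15344 tested), and 291 called lower by more than 2-fold (1.9%). In a fit of the WT males alone edgeR called 0 rows. For the WT-higher rows the mean difference from KO vehicle, in log2 CPM, was 0.464 in library 71, 1.75 in library 72 and 1.81 in library 73. The vehicle libraries, each set against the other vehicle libraries, stood at -0.0524, -0.0686 and 0.121. All 3 LPS libraries were thus above all vehicle libraries, with library 71 at 26.1% of the mean change of the other LPS libraries. For the WT-lower rows the differences were -0.623, -1.40 and -1.45 in libraries 71, 72 and 73, and -0.099, -0.0497 and 0.149 in the vehicle libraries. Library 71 reached 43.7% of the change of the other LPS libraries here. The KO libraries at 24 h, which come from the runs of the vehicle libraries, stood between 1.05 and 1.29 for the WT-higher rows and between -0.605 and -0.234 for the WT-lower rows.

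**Figure D1:**
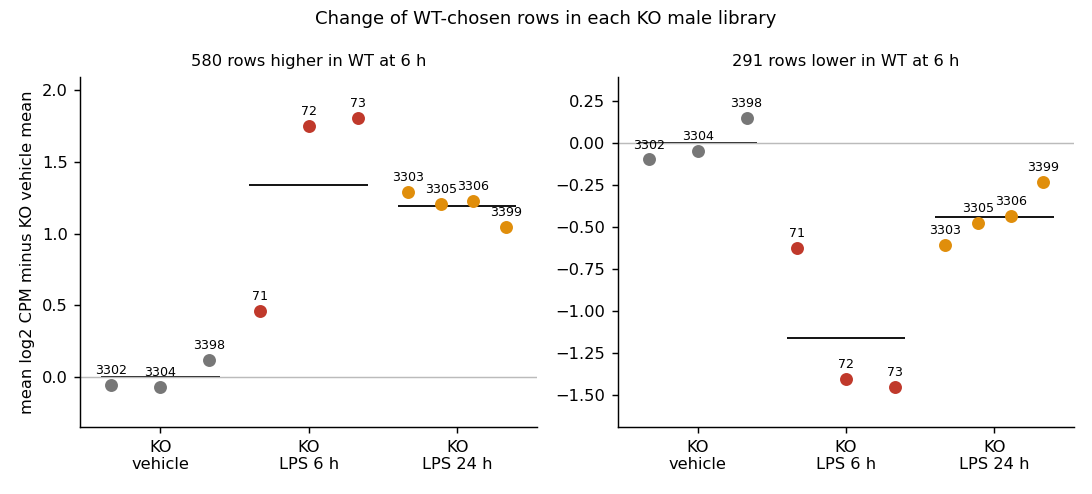
Mean difference from KO vehicle in log2 CPM (vertical axis) of each KO male library, by group, over the rows called more than 2-fold higher (left) or lower (right) in WT males at 6 h; points are libraries with their numbers, each vehicle library is set against the other vehicle libraries, and lines are group means. Library 71 stands at 0.464 and -0.623, between the vehicle libraries and libraries 72 and 73.

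The smaller change of library 71 was spread over most of these rows. Of the 580 WT-higher rows, 479 lay above the vehicle mean in library 71, 573 in library 72 and 572 in library 73. More than 2-fold above it were 88 rows in library 71 (15.2%), 455 in library 72 (78.4%) and 453 in library 73 (78.1%). Of all 15344 rows tested, 937, 1917 and 2006 were more than 2-fold above it in libraries 71, 72 and 73. Library 71 fell short of both other LPS libraries in 544 of the 580 rows, lay between them in 28 and moved farther than both in 8. Among the 291 WT-lower rows it fell short of both in 237, lay between them in 26, moved farther in 21 and was tied with at least 1 of them in 7. The WT-higher rows together took 2.52% to 2.55% of all counts in the vehicle libraries, 3.38% in library 71, 7.53% in library 72 and 8.17% in library 73. The WT-lower rows took 6.11% to 8.34% with vehicle and 3.74%, 2.42% and 2.16% in libraries 71, 72 and 73. Row 36924, 1 of these rows, held more than all the others together in each vehicle library. Without it the WT-lower rows took 2.67% to 2.77% with vehicle and 1.95%, 1.01% and 0.928% in libraries 71, 72 and 73. Library 71 lay outside the vehicle range of these shares in both sets, with or without row 36924.

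**Figure D2:**
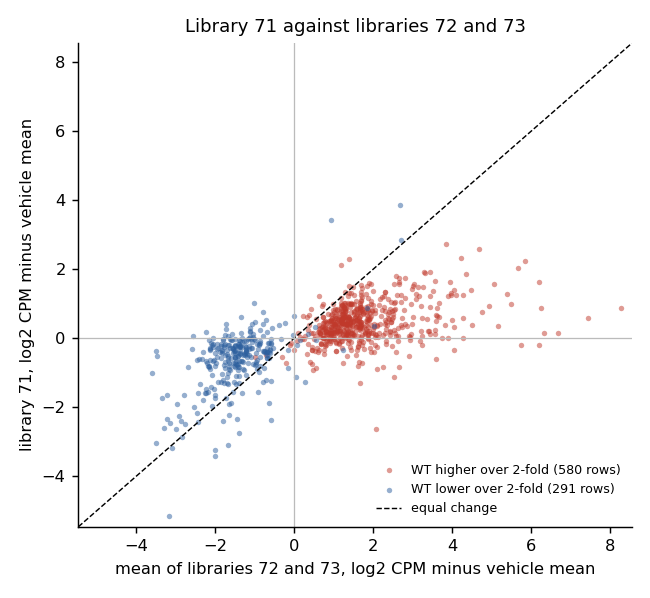
Difference from the KO vehicle mean in log2 CPM of each WT-chosen row, in library 71 (vertical axis) against the mean of libraries 72 and 73 (horizontal axis); the dashed line marks equal change. Most of the 580 WT-higher rows lie below the line, and library 71 fell short of both other LPS libraries in 544 of them.

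At 6 h after LPS, 655 rows were higher and 438 lower in KO males than with vehicle. These are 4.27% and 2.85% of the 15344 rows tested (edgeR quasi-likelihood test, all 33 sorted libraries in 1 model, Benjamini-Hochberg adjusted p under 0.05). Of the higher rows 404 differed by more than 2-fold (2.63% of all tested), 144 by more than 4-fold and 42 by more than 16-fold. Of the lower rows 284 passed 2-fold (1.85%), 184 passed 4-fold and 90 passed 16-fold. The median log2 fold change was 1.17 among the higher rows and 1.55 in size among the lower ones, against -0.00679 over all rows tested. The 3 LPS libraries all lay above the 3 vehicle libraries in 525 of the 655 higher rows and all below in 361 of the 438 lower rows, where over all tested rows such separation occurred in 11.4% and 10.4%. The rows were called on these same libraries, so separation among them follows in part from the selection. The calls used the spread shared by all sorted groups. In a fit of the 6 libraries alone edgeR called 0 rows, with 2311 at an unadjusted p under 0.05.

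The number of calls changed with the libraries left out. Without library 71, 1218 rows were called higher and 1125 lower (7.66% and 7.07% of 15903 rows). They included 647 of the 655 higher rows and 386 of the 438 lower rows of the full comparison. Without library 72 only 115 and 21 rows were called, and without library 73 only 112 and 22. Without vehicle library 3398 the counts were 255 and 87 (1.61% and 0.548%), with 222 and 82 of the original rows. Without both 71 and 3398 they were 939 and 827.

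Many of the rows called lower were high in vehicle library 3398. In 184 of the 438 lower rows (42%), library 3398 was more than 2-fold above the mean of the other vehicle libraries, against 10.8% of all rows tested and 34 of the 655 higher rows. In 142 of the lower rows it was more than 4-fold above. Library 3398 took part in these calls, so part of this contrast follows from the selection. Rows lower by more than 16-fold numbered 90 with all libraries and 3 without library 3398, while rows higher by more than 16-fold numbered 42 and 23.

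**Figure D3:**
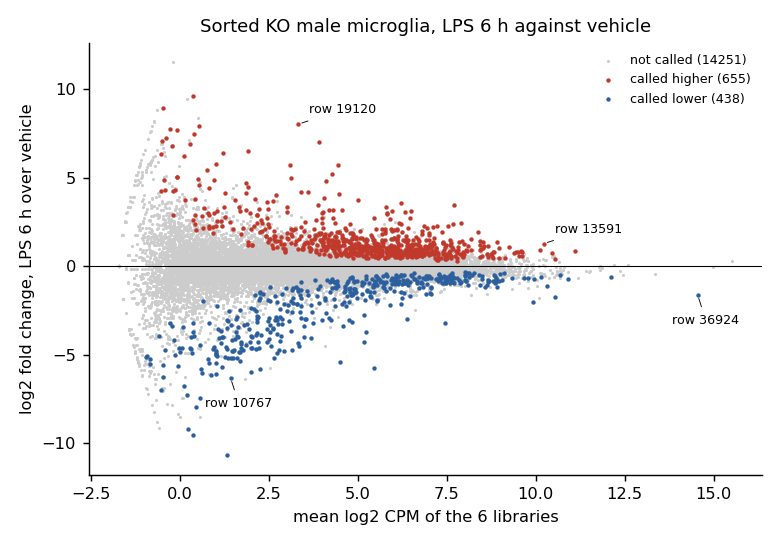
Log2 fold change of LPS 6 h over vehicle (vertical axis) against the mean log2 CPM of the 6 KO male libraries (horizontal axis) for the 15344 rows tested. The 655 rows called higher are red, the 438 called lower are blue and the rows named in the text are labelled; the lower rows reach farther from 0 at low levels than at high levels.

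Rows were also sorted by mean log2 CPM, which here stands for the counts behind a row and not for its expression relative to other rows. Calls were more frequent among rows with more counts. Of the rows with a mean log2 CPM under 1, 1.33% were called higher and 1.33% lower. Of the rows above 7, 8.25% were called higher and 6.15% lower. Fold changes went the other way, with a median log2 fold change of 4.29 among higher rows under 1 and 0.83 among those above 7. In the lower direction the median log2 fold changes were -4.89 and -0.723. Rows with 0 to 3 counts in all vehicle libraries together numbered 267, and 19 of them were called higher (4.27% of all tested rows were), with mean levels of 1.33 to 17 CPM at 6 h. Rows with 0 to 3 counts in the 3 LPS libraries together numbered 289, and 22 of them were called lower (background 2.85%). Such rows could pass the filter on low counts through the group where they are high, so these counts are a description. No fold is given for either kind.

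Row 19120 had the largest fold rise among the rows that the naming rule admits. It stood at 0.891, 1.16 and 1.07 CPM in vehicle libraries 3302, 3304 and 3398, and at 2.15, 397 and 432 CPM in LPS libraries 71, 72 and 73. Libraries 72 and 73 were far above every vehicle library, and library 71 just above the highest of them. The fitted log2 change was 8.03 ± 1.61 (SE, adjusted p = 0.00491), and 8.63 ± 1.40 without library 71 (adjusted p = 0.00028). It was not called by voom (adjusted p = 0.145) or against vehicle library 3398 alone (0.126). WT libraries showed a like pattern, with 279, 321 and 4.41 CPM at 6 h against 0.571 to 3.01 CPM with vehicle. At 24 h the KO males were at 0.70 to 4.63 CPM, close to vehicle.

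Row 13591 had the largest gain in CPM. Its vehicle libraries lay close together, at 795, 806 and 794 CPM, and libraries 71, 72 and 73 held 1013, 2303 and 2492 CPM. All 3 LPS libraries were above vehicle, with library 71 the nearest to it. The log2 change was 1.28 ± 0.30 (SE, adjusted p = 0.0111), and 1.60 ± 0.29 without library 71 (adjusted p = 0.000569). It lost its call without library 72 (adjusted p = 0.0833), without library 73 (0.102) and, narrowly, without vehicle library 3398 (0.051), and against library 3398 alone (0.149). In KO males at 24 h the row stood at 951 to 1121 CPM.

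Row 10767 had the largest fold fall among the rows that the rule admits. Vehicle libraries 3302 and 3304 held 5.94 and 6.48 CPM and library 3398 held 56.8 CPM, against 0, 0.402 and 0.393 CPM in the LPS libraries. The groups did not overlap, but 1 vehicle library carried most of the difference. The log2 change was -6.32 ± 1.42 (SE, adjusted p = 0.00943), and without library 3398 it was -4.44 with an adjusted p of 0.0714. WT males stood at 0.161 to 3.96 CPM with vehicle and at 1.35 to 6.43 CPM with LPS. Library 71 was as low as the other LPS libraries in this row. Without library 72 or 73 the call was also lost (0.065 and 0.0654), as it was with voom (0.059).

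Row 36924 had the largest loss in CPM, and library 71 was low in it together with libraries 72 and 73. The vehicle libraries held 37706, 33639 and 57214 CPM, and libraries 71, 72 and 73 held 16984, 13180.4 and 11466 CPM. All LPS libraries were below all vehicle libraries. The row took 4.30% ± 1.12 of all counts in the vehicle group (SD, n = 3) and 1.48% ± 0.285 in the LPS group (n = 3). Its log2 change was -1.63 ± 0.45 (SE, adjusted p = 0.0277), and -1.78 ± 0.52 without library 71 (adjusted p = 0.0209). The call was lost without library 3398 (adjusted p = 0.115), without library 72 (0.121) or without library 73 (0.145). In WT males the shares were 5.16% ± 1.71 with vehicle and 1.41% ± 0.195 at 6 h, again with all 3 LPS libraries low, including WT library 70 at 14636 CPM. In KO males at 24 h the row took 5.20% ± 1.44 (n = 4). All 6 libraries of the 6 h run, KO and WT, were below all male vehicle libraries of both genotypes and all KO male libraries at 24 h, and run and treatment cannot be told apart.

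**Figure D4:**
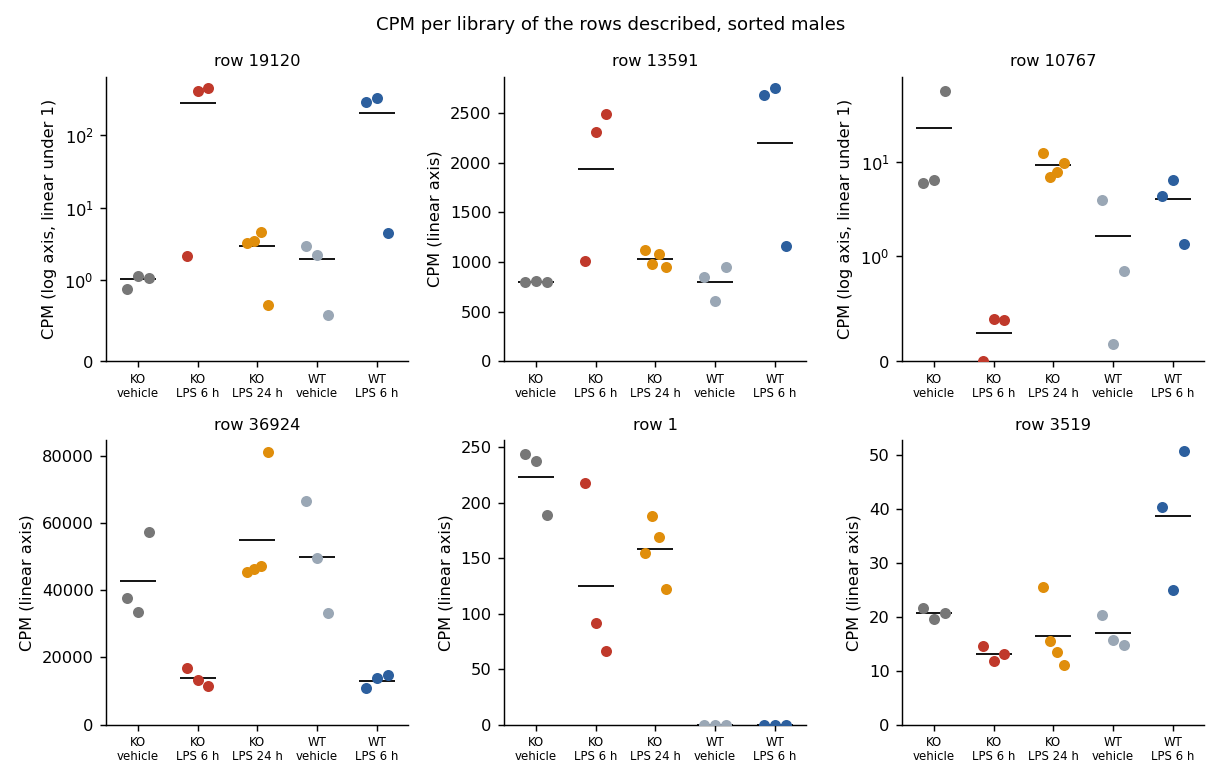
CPM per library (vertical axis; log axis, linear under 1 CPM, for rows 19120 and 10767, and linear axes elsewhere) of 6 rows in sorted males, by group, with lines at group means. In row 19120 libraries 72 and 73 stand at 397 and 432 CPM while library 71, at 2.15 CPM, stays near vehicle; in row 36924 all LPS 6 h libraries are low.

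Row 1 is expressed in KO libraries and is at 0 counts in the WT males of both groups, so it follows the genotype labels. In KO males it stood at 244, 238 and 189 CPM with vehicle and at 218, 91.6 and 66.1 CPM in libraries 71, 72 and 73. Library 71 was within the vehicle range and the other LPS libraries were below it. The log2 difference of -0.84 ± 0.31 did not pass the threshold (adjusted p = 0.10), whereas without library 71 it was -1.48 ± 0.27 (adjusted p = 0.000829).

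The rows called in KO males were then read in groups other than the KO males compared. The WT males and the KO females described below entered the same fit, with a shared filter, scaling and spread. Their calls are thus not independent of the KO calls. In WT males, 480 of the 655 KO-higher rows were also called higher (73.3%, where 6.73% of all tested rows were), and 1 was called lower. Their median log2 fold change in WT was 1.13, with 98.5% of the rows on the same side, against a median of -0.0193 over all rows. Of the 438 KO-lower rows, 146 were also called lower in WT (33.3%, background 3.73%) and 0 higher. Their median in WT was -0.718, with 90.6% of the rows on the same side. Without library 3398 the KO-lower list shrank to 87 rows, of which 60.9% were called lower in WT, and 81.6% of the 255 KO-higher rows were called higher there. Without library 71 the shares were 58.9% of the higher and 29.1% of the lower rows, and without both libraries 65% and 34.5%. The KO and WT libraries at 6 h share their run of numbers, so this comparison does not separate LPS from the run.

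KO females at 24 h after LPS, with their own vehicle libraries, come from the same runs of numbers as the vehicle males. Of the 655 rows higher in KO males at 6 h, 282 were called higher in these females (43.1%, background 6.69%), 4 were called lower and 369 were not called. Their median log2 fold change was 0.771, against -0.00935 over all rows. Of the 438 rows lower in KO males at 6 h, 62 were called lower in the females (14.2%, background 4.29%), 24 were called higher and 352 were not called, with a median of -0.141. Without library 3398, 56.5% of the 255 higher rows and 33.3% of the 87 lower rows were called in the same direction in these females. Without library 71 the shares were 36.2% and 18.7%, and without both libraries 42.4% and 24.5%. These females differ from the 6 h males in sex and in time as well as in run.

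In cultures of KO male microglia from newborn hippocampus, treated for 6 h with LPS at 10 ng/ml, 627 of the higher and 395 of the lower rows could be tested. Of these, 133 of the KO-higher rows were also called higher (21.2%, background 5.93%) and 29 lower, and 82 of the KO-lower rows were also called lower (20.8%, background 6.30%) and 12 higher. The median log2 fold changes in culture were 0.104 and -0.451, against -0.14 over all rows tested there. Rows 19120, 13591, 10767 and 36924 changed by -1.39, -0.38, -0.97 and 0.4 on the log2 scale in culture. None of them was called there (adjusted p of 0.0787 to 0.205). In the KO females at 24 h the changes were 1.99, 0.2, 2.08 and -0.01, again without a call (adjusted p of 0.269 to 0.997). The culture calls were 948 higher and 1007 lower with TMM scaling, and 1213 and 616 with RLE scaling. Across the rows tested in both comparisons of each pair, the log2 fold changes of KO males at 6 h had a Spearman correlation of 0.544 with those of WT males, 0.271 with those of KO females at 24 h and, over 13382 rows, 0.23 with those of the KO male cultures. These are descriptions across rows, which are not independent replicates, and the first pair shares its run of library numbers.

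**Figure D5:**
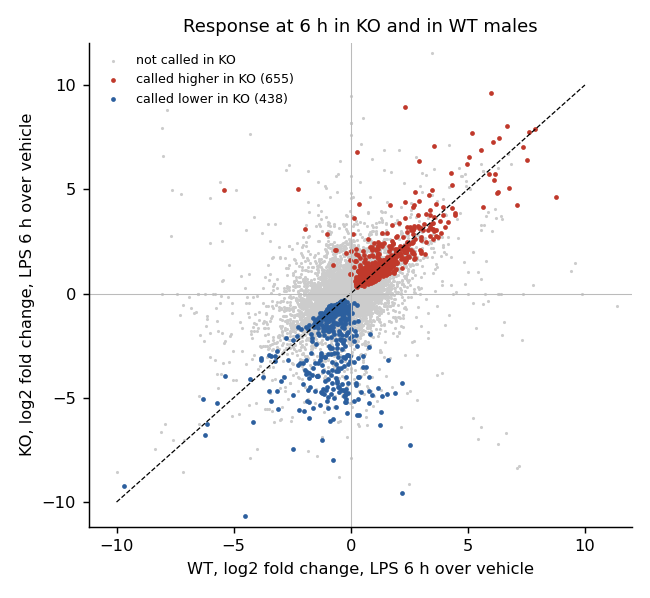
Log2 fold change of LPS 6 h over vehicle in KO males (vertical axis) against WT males (horizontal axis) for the rows tested; the dashed line marks equal change. The 655 KO-higher rows lie almost all at positive values in WT, whereas many of the 438 KO-lower rows lie far below 0 in KO and near 0 in WT.

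No row passed the direct test of a different response in KO and WT males. For the KO minus the WT response edgeR called 0 of 15344 rows, with 755 rows at an unadjusted p under 0.05. Voom called 0 and DESeq2 called 20. Without KO library 71 and WT library 70, the WT library that lies near vehicle, edgeR again called 0. This alternative was added after seeing the data. Among the 580 WT-higher rows, the median log2 fold change was 1.22 in KO (quartiles 0.872 and 1.83) and 1.56 in WT, where the rows had been chosen. Of these rows 345 were called higher in KO (background 4.27%), and of the 291 WT-lower rows 66 were called lower in KO (background 2.85%).

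The row with the lowest adjusted p in that test had been singled out in earlier results of these data. In KO males it stood at 21.7, 19.6 and 20.8 CPM with vehicle and at 14.6, 11.8 and 13.1 CPM in libraries 71, 72 and 73. In WT males it stood at 20.4, 15.8 and 14.7 CPM with vehicle and at 40.4, 25.0 and 50.8 CPM at 6 h. The LPS libraries were all below vehicle in KO and all above it in WT, and library 71 moved with the other KO libraries here. The change in KO was -0.65 ± 0.24 (SE, adjusted p = 0.0964) and in WT 1.19 ± 0.24 (adjusted p = 0.00252). The difference of the responses was -1.84 ± 0.34 and did not pass the threshold (adjusted p = 0.174, and 0.231 without library 71). Between the LPS libraries alone, KO minus WT was -1.56 ± 0.25 in this row (adjusted p = 0.00656), 1 of 3 rows called in that comparison (0.0196%). Cre and loss of Orai1 cannot be told apart there.

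Within KO males, 6 h and 24 h after LPS were compared directly, with 4 libraries at 24 h. At 6 h 450 rows were higher and 545 lower than at 24 h (2.93% and 3.55% of the rows tested), and 542 and 604 without library 71. Without library 72 the counts were 251 and 270, and without library 73 they were 183 and 216. Time after LPS and the run of library numbers cannot be told apart in this comparison either. Both 6 h and 24 h were also set against the same vehicle libraries, so only each row's own values are given side by side.

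Row 6179 had the largest fold excess at 6 h over 24 h. It held 4.29, 17.1 and 17.4 CPM in libraries 71, 72 and 73, and 0.463 to 1.06 CPM in the 24 h libraries, a log2 difference of 4.19 ± 0.78 (SE, adjusted p = 0.00146). With vehicle it stood at 2.16 to 6.88 CPM, so library 71 was within the vehicle range. Against vehicle the difference was 1.64 ± 0.75 at 6 h (adjusted p = 0.184) and -2.55 ± 0.76 at 24 h (adjusted p = 0.0296).

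Row 6130 had the largest excess in CPM at 6 h. Libraries 71, 72 and 73 held 4281, 2913 and 2850.2 CPM, against 1895 to 2212 CPM at 24 h and 2857 to 4456 CPM with vehicle. Libraries 71 and 72 lay within the vehicle range and library 73 just under it, and all 24 h libraries lay below every 6 h library. The difference between 6 h and 24 h was 0.71 ± 0.19 (adjusted p = 0.0231) and was not called without library 71 (0.52 ± 0.20, adjusted p = 0.116). It was also not called without 24 h library 3306 (adjusted p = 0.0624), without 24 h library 3399 (0.0616) or with the groups compared alone (0.0579). At 24 h the row fell by 0.93 ± 0.19 on the log2 scale from vehicle (adjusted p = 0.00217), and at 6 h the difference was -0.21 ± 0.21 (adjusted p = 0.578).

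Row 11662 had the largest fold deficit at 6 h against 24 h, at 0.429, 0.535 and 0.393 CPM in libraries 71, 72 and 73 and 13.1 to 51.5 CPM at 24 h. Its vehicle libraries ran from 0.166 CPM in library 3304 through 10.1 CPM in library 3302 to 62.2 CPM in library 3398, so that the vehicle and 6 h groups overlapped. Against vehicle the log2 change at 6 h was -5.68 ± 1.62 (adjusted p = 0.0333), and 0.0517 without library 71. The difference from 24 h was -5.85 ± 1.60 (adjusted p = 0.0259), with an adjusted p of 0.0693 without library 71, 0.0997 without library 72, 0.114 without library 73, 0.056 without 24 h library 3399 and 0.0991 with voom. Row 36924 had the largest deficit in CPM, with a log2 difference of -1.99 ± 0.44 from 24 h (adjusted p = 0.00595).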

How the data were processed

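Whole-number counts per row, not normalized, were made and deposited by the authors. According to the submitters' processing notes the tools were STAR 2.7.10a, Salmon 1.10.1 and Trim Galore 0.6.7, with the build GRCm38. Their order and settings are not given in the sources used here. Per the labels' protocols, sorted cells gave 0.97 ng of RNA per library, prepared with a SMARTer kit. Rows were kept by filterByExpr (minimum count 10, minimum total 15): 15344 of 45707, with 99.84% of the counts. edgeR 4.0.16 (R 4.3.3) was used with TMM scaling, 1 coefficient per group, its two-sided quasi-likelihood test and Benjamini-Hochberg adjustment. SEs are the log2 change over the square root of F. Log2 CPM had a prior count of 2. The code was tested on simulated data. Alternatives were RLE scaling, no filter, DESeq2 1.42.0, voom (limma 3.58.1) with quality weights, fits of the compared groups alone, a replicate block and left-out libraries.

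The sorted and culture tables appeared to share 1 row order: mean levels of 26168 rows had a Spearman correlation of 0.853, against 0.328 to 0.347 after moving 1 table by 1 to 3 rows. No replicate pair of the KO 6 h and vehicle groups agreed within sampling noise (chi-square over its degrees of freedom at least 13.2). Rows were named by rule, at most 2 in each direction per comparison: the largest fold change and the largest change in mean CPM. To qualify, a called row needed a mean log2 CPM of 1 or more, groups that do not overlap and over 3 counts in the lower group. Row 1 and 3 rows from earlier results were added, of which 1 is described. The groups, lists and tests were chosen with earlier results of these data known. Gene lists and cell type markers were not tested, since no row has a name.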

Additional observations from a re-analysis of the deposited data

Results flagged for a closer look

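Among the 4 KO male libraries at 24 h, library 3399 lay far from the others in row 36924, at 81084 CPM, and in the share of counts taken by the WT-lower rows, at 9.56%. Row 36924 is 1 of the WT-lower rows and alone took 7.37% of the counts of this library. Without it the share was 2.19% in library 3399 and 1.76% to 1.9% in the others, so both values largely reflect the same row. In groups of 4, chance marks about 1 group in 20 in this way. The row singled out in earlier results moved in opposite directions in every KO and every WT library at 6 h, with a difference of -1.84 in log2 response (adjusted p = 0.174). Row 11662 also did so relative to the vehicle means, with a difference of -6.95 (adjusted p = 0.782), while its KO vehicle libraries ran from 0.166 to 62.2 CPM. Neither difference passed the direct test of edgeR.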

How the results depend on the processing

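For KO males at 6 h against vehicle (655 higher, 438 lower), leaving out 1 library gave 112 to 1218 higher and 21 to 1125 lower. Voom gave 1303 and 1354, DESeq2 gave 876 lower, an adjusted p under 0.01 left 178 and 56, and vehicle library 3398 alone as control, assumed to vary like the other groups, gave 148 higher. Both fell to 0 in the groups compared alone (2311 rows at an unadjusted p under 0.05). Without libraries 71 and 3398, an alternative added after seeing the data, 827 were lower. For the KO minus WT response (0 rows) DESeq2 called 20, and leaving out 1 library gave 0 to 1. For 6 h against 24 h (450 and 545), leaving out 1 library gave 183 to 542 and 216 to 604, voom 910 and 1011, the groups alone 161 higher, and DESeq2 930 lower. For WT at 6 h (1032 and 572) leaving out 1 library gave 347 to 1551 and 66 to 1451, voom 2081 and 1910, DESeq2 969 lower, and the groups alone 0 and 0. For KO females (1026 and 659) leaving out 1 library gave 509 to 962 and 305 to 565. In culture, where 1007 rows were lower, RLE gave 616 and leaving out 1 library 601 to 797. With rows chosen in culture, the scores of libraries 72 and 73 were 0.89 and 0.911 for higher and -0.613 and -0.63 for lower rows. Library 71 stood at 0.109 and -0.239 there, 12.1% and 38.5% of the mean change of libraries 72 and 73. It lay just outside the vehicle libraries, at -0.0653 to 0.0375 for higher and -0.21 to 0.393 for lower rows. The causes were not tested. No named row changed direction in any alternative run.

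Replicate numbers of the titles do not pair these samples: deviations of KO libraries with the same number correlated between -0.0363 and -0.00232 for 6 h and vehicle. With the replicate number as a block, in the groups compared alone, 0 rows were called higher and 0 lower for KO at 6 h against vehicle, 2 and 16 for 6 h against 24 h, 0 and 0 for WT, and 0 for the KO minus WT response.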
